A study of Rattus norvegicus with 6 samples.

Results

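Interleukins are the signalling proteins by which immune cells and tissue cells address one another, and their receptors sit on immune, stromal and endocrine cells. The genes described here are all those on an Agilent rat array whose transcript carried a rat gene symbol that begins with Il and a digit. There were 59 such genes among 13903 named genes on the array, read by 61 of 24684 probes. By role, 29 encode ligands, 24 receptors, and 6 natural inhibitors or decoys. Of the 59 genes, 57 had 1 probe and 2 had 2 probes, and the brighter probe then stood for the gene. Il1r1, Il2rb, Il12rb1, Il15ra and Il22ra1 were not matched to a probe and were not analysed here.

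The samples were total RNA of pancreatic islets, the endocrine cell clusters of the pancreas, from Rattus norvegicus. The tested stage was adult, with islets of 3 male rats, and it was set against postnatal day 10 (P10), with 3 pools of islets from rats aged 10 days. No strain, treatment, genetic change or adult age is given in the labels, and the sex of the P10 rats is not given either. Each sample was labelled with Cy3 and read on 1 array, so the number of arrays limits the precision.

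Per array, 17829 to 18731 of the 24684 probes gave a signal well above background, and 0 spots were saturated. Adult arrays 2 and 3 lay on one slide, while adult array 1 shared the other slide with all 3 P10 arrays. Adult array 1 stood apart from adult arrays 2 and 3, which differed from each other by about the noise between spots and were counted as 1 sample, and slide and rat cannot be told apart there. P10 arrays 1 and 2 were also averaged, so n = 2 per stage, and p-values measure the spread between these samples. No P10 pair differed by more than the noise between spots, so which P10 arrays count as separate samples is a choice. Markers of other cells moved with stage. All 11 enterocyte markers on the array (absorptive cells of the gut) were lower in adult islets, with a mean log2 level of -5.0 to -4.58 on adult arrays, against 3.54 to 3.58 on P10 arrays. Of 9 acinar markers (the enzyme-secreting cells of the pancreas), 7 were lower and 0 higher (4 and 1 after quantile normalization), and their mean level was 3.90 to 4.31 on adult arrays and 6.27 to 6.33 on P10 arrays. The 6 beta cell markers were well above background at either stage, with 3 higher, 1 lower (Ins1, log2 change -0.93) and 2 not called. After quantile normalization 4 were higher and 0 lower, and Ins1 was not called (0.18). The mean level of the beta cell markers was 4.78 to 5.09 on adult arrays and 3.62 to 3.71 on P10 arrays. Of 4 fibroblast markers tested, 3 were lower and 1 higher, also after quantile normalization. The mean level of the fibroblast markers was 2.98 to 3.08 on adult arrays and 3.81 to 3.9 on P10 arrays. The part of these other cells in the interleukin results was not tested.

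The interleukin 1 (IL-1) family holds the alarm cytokines IL-1, IL-18, IL-33 and IL-36, which act through paired receptor chains and the adaptor MyD88, and which are held in check by receptor antagonists and decoys. In islets, IL-1 beta is known as a cytokine that beta cells respond to and that resident macrophages make, and IL-33 is known as a product of mesenchymal cells that acts on innate lymphoid cells through the receptor ST2. Most other interleukins act through Janus kinases and STAT factors, and their receptors share chains such as the common gamma chain or gp130.

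Adult islets carried more transcript of several IL-1 family genes, led by the IL-33 receptor gene Il1rl1 and followed by Il1b, Il33 and Il18. They also carried more Il22ra2, Il10, Il7r and Il13ra2. The rise of Il1rl1 is that of its brighter probe, and its dimmer probe, on another transcript, did not pass. They carried less Il15 and Il17re. Il1rapl1 and Il3 were also lower, but both were dim in adults. The calls of these 2 genes, like those of Il10 and Il7r, did not hold under every scaling and background correction tried. Of the 59 genes, 41 were bright enough to test (well above background on every measured array of at least 1 stage). A level is the log2 of a probe's signal after subtraction of its array's 75th percentile, a change is the adult level minus the P10 level in log2, and a call is an adjusted p under 0.05 in limma after Benjamini-Hochberg adjustment over every probe in the fit. By that rule 15 genes were higher in adults, 8 were lower and 18 did not pass. The share called higher was 36.6% of the 41 genes, against 23.6% of the 11425 named genes tested on the array, and the share called lower was 19.5% against 28.8%. The median change was 0.15 over the 41 interleukin genes and -0.126 over all named genes tested. Of the 15 higher genes, 13 had changed by at least 2-fold, and of the 8 lower genes, 4 had.

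The way genes passed the filter bears on these counts. Of the 41 genes, 32 were well above background at both stages, and 10 of them were higher and 5 lower. A fit restricted to probes of this kind gave the same counts, against 24.3% of named genes higher and 28.7% lower. The 5 that passed through the adult arrays alone were all higher, and of the 4 that passed through the P10 arrays alone 3 were lower, as the filter favours. With quantile normalization in place of percentile scaling, 17 genes were higher and 6 lower with a median of 0.27, against 30% and 27.2% of all named genes tested. With median scaling 16 were higher and 4 lower with a median of 0.45, against 30.5% and 22.3%. All 15 higher calls held under both of these scalings, while the lower calls of Il10ra and Il11 held under neither, that of Il3 was lost with quantile normalization, and those of Il7 and Il11ra1 were lost with median scaling. With slide as a block over 6 separate arrays, 19 of 43 genes tested were higher and 14 lower with a median of -0.02, against 34% and 45.6% of named genes. On slide 1 alone, which holds adult array 1 and the 3 P10 arrays, 16 were higher and 14 lower, against 33.6% and 45.2%. Every p from slide 1 alone sets 1 adult array against the spread of the P10 arrays, so it carries no adult spread and is given as a within-slide value, not as support. Il6 and Il12a were the called genes that did not pass there.

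Single arrays moved the counts of calls for the whole array and for these genes alike. Leaving out adult array 1 or P10 array 3 left 1 counted sample in that stage. A p or call from these fits carries no spread within that stage, so it is not given as support. Without adult array 1, 23 of 44 genes tested were higher and 12 lower, against 34.2% and 38% of named genes. Without P10 array 3, 10 of 41 were higher and 2 lower, against 9.42% and 12.1%. With a normexp background correction of the raw medians, 7 of 41 were higher and 2 lower, against 13.7% and 15.8%. The 7 were Il1rl1, Il1b, Il33, Il18, Il22ra2, Il13ra2 and Il1rn, and the 2 were Il15 and Il17re. Keeping spots marked as outliers raised the number tested to 44, with 17 higher and 8 lower, against 23.8% of named genes higher.

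**Figure D1:**
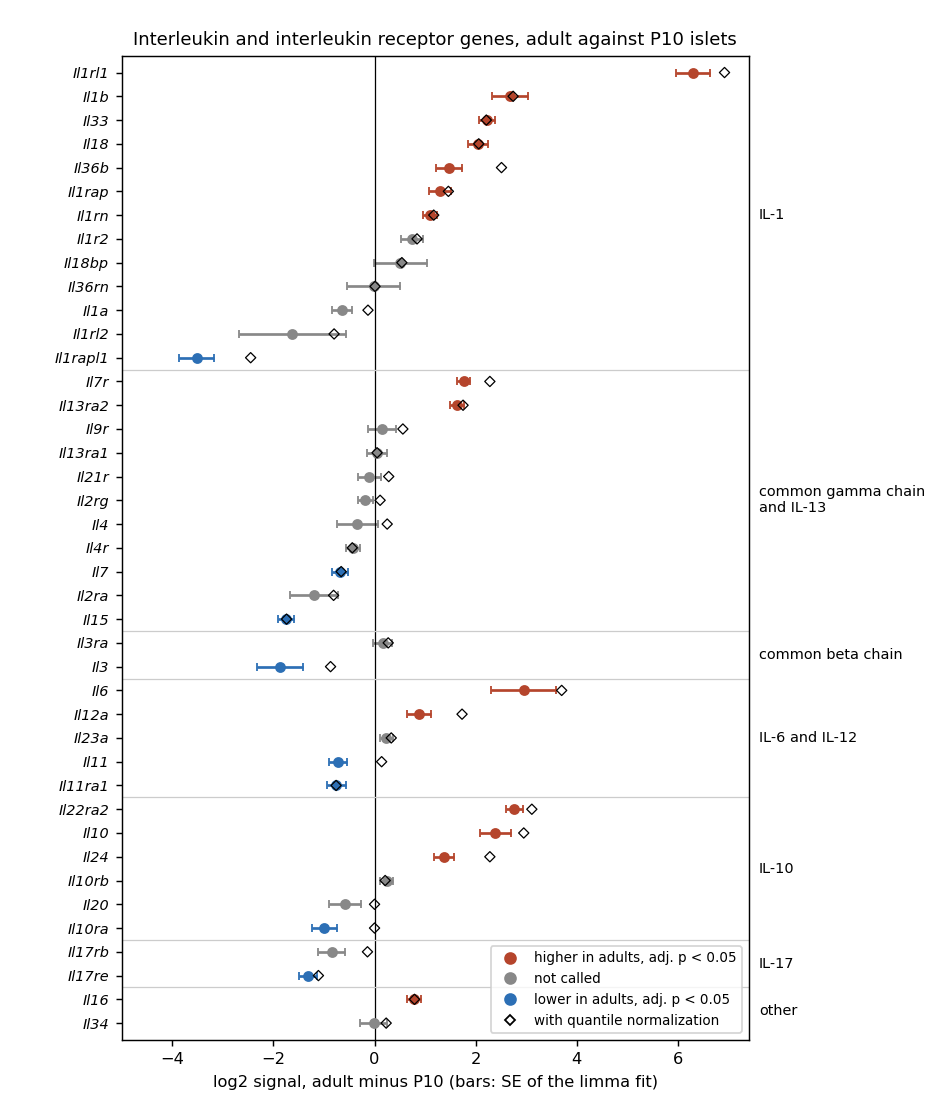
Change of each of the 41 tested interleukin genes, adult minus P10 in log2 signal (horizontal axis), grouped by family, with bars for the standard error of the limma fit and open diamonds for the change after quantile normalization. Il1rl1 lies farthest right at 6.30 and Il1rapl1 farthest left at -3.52, and the diamonds of dim genes such as Il36b, Il24 and Il10ra lie to the right of their points.

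The largest change in either direction among the 41 genes was that of Il1rl1, which encodes ST2, the receptor chain that binds IL-33. Its brighter probe read -0.64, -1.06 and -0.89 on the adult arrays, against -6.46, -6.96 and -7.50 on the P10 arrays. Every adult array lay far above every P10 array, and no P10 array was well above background. By this scaling the signal was at least 72.1-fold higher in adults (log2 change 6.30, SE 0.33, adjusted p = 0.00155). A fold printed with at least, here and below, sets the mean of the brighter stage against a floor on the dimmer stage's arrays. That floor was the lowest signal of any probe that still counted as measured, or the probe's own signal where that was higher. It is not a detection limit of the probe, so such folds hold for this scaling and background only. The change of Il1rl1 was 2.96 after normexp correction (adjusted p = 0.00572). A second probe, designed on another Il1rl1 transcript, was dim at both stages. It read -6.32, -5.72 and -5.31 on the adult arrays and -7.18, -6.51 and -6.56 on the P10 arrays, a change of 0.78 (SE 0.33) that did not pass (adjusted p = 0.119). All adult arrays still lay above all P10 arrays at that probe, and it passed after quantile normalization (1.73, adjusted p = 0.004). The gene lies next to Il1rl2 and Il18r1 in the GRCr8 annotation. Its neighbour Il1rl2, the IL-36 receptor chain, changed by -1.63 and did not pass (adjusted p = 0.257). The change of Il1rl2 was -0.80 after quantile normalization (adjusted p = 0.411), -0.22 without adult array 1 and -3.17 on slide 1 alone. Adult array 1 read -8.12, against -5.31 and -5.30 on the other adult arrays. Il18r1, the IL-18 receptor chain, was not well above background on any adult array and on 1 P10 array.

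Il33, the ligand of ST2, read 2.74, 2.50 and 2.52 on the adult arrays, against 0.32, 0.37 and 0.46 on the P10 arrays. The stages did not overlap and the arrays of each stage lay close together. The mean was 2.62 ± 0.16 in adults and 0.40 ± 0.08 at P10 (SD, n = 2 each), a 4.66-fold higher signal in adults (log2 change 2.22, SE 0.16, adjusted p = 0.00228). Il1rap encodes the co-receptor that ST2 and the IL-1 receptor both use, and its 2 probes went in opposite directions. The brighter probe read -2.30, -1.92 and -1.93 on the adult arrays and -3.26, -3.23 and -3.59 on the P10 arrays, 2.47-fold higher in adults (log2 change 1.30, SE 0.22, adjusted p = 0.0142). The dimmer probe, on another transcript of the gene, was not well above background on any adult array. It read -8.16, -7.96 and -7.75 on the adult arrays and -5.68, -5.89 and -6.20 on the P10 arrays, at least 3.97-fold lower in adults (log2 change -2.02, adjusted p = 0.00525). Averaged over both probes the change was -0.36 and did not pass (adjusted p = 0.24). Without P10 array 3 the brighter probe did not pass either (1.13, adjusted p = 0.108).

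Because Il33 and the brighter probe of Il1rl1 were both higher in adults, the 250 bases before each annotated start are shown, with a second start for Il33. The sequences are RefSeq windows of the rat assembly GRCr8, given 5′ to 3′ on the strand of the gene. Capitals mark matches, on either strand, to 5 motifs. These were TATAAA, the core promoter box of that name, AGATAA, which is read by GATA factors, TGANTCA, which is read by AP-1, TTCNNNGAA, which is read by STAT factors, and GAGGAAGT, which is read by PU.1. No pair of matches overlaps in the windows shown.
Il1rl1, chr9:50203388-50203637, plus strand: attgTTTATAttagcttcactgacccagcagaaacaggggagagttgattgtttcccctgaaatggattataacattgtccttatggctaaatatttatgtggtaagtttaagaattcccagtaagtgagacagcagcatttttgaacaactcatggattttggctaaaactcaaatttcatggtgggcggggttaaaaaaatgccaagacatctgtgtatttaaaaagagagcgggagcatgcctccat
Il33, first start, chr1:237115323-237115572, plus strand: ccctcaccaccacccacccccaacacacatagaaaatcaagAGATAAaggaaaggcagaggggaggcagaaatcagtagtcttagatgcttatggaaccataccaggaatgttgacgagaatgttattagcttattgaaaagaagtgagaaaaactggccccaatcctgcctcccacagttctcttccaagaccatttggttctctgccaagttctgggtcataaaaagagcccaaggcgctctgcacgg
Il33, second start, chr1:237134696-237134945, plus strand: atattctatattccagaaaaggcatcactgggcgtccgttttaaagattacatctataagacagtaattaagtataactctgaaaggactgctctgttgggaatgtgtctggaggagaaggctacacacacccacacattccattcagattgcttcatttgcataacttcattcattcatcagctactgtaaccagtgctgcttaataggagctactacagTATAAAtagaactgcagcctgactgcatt
The first Il33 window holds a GATA match 209 to 204 bases before the start, and the second holds a TATA match 29 to 24 bases before the start. The TATA match of Il1rl1 is on the other strand, 246 to 241 bases before the start. Counted over the first window of each gene, AGATAA was found in 10% and TATAAA in 13.1% of all 27457 genes in the table, and each was found in 8 of the 46 interleukin genes that have a window. TTCNNNGAA was in 7.52% of all genes and 4 of the 46, and GAGGAAGT in 2.04% and 1. A match describes the letters of a window and says nothing of binding.

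Il1b, which encodes the secreted alarm cytokine IL-1 beta, read 0.36 and -0.54 on adult arrays 1 and 3, against -2.84, -2.81 and -2.72 on the P10 arrays. Its spot on adult array 2 was marked as an outlier and left out, so array 3 stood alone for the second adult sample. Both adult values lay above all P10 values, 6.40-fold higher in the mean (log2 change 2.68, SE 0.35, adjusted p = 0.00759). With outlier spots kept, adult array 2 read -0.38 and the change was 2.73 (adjusted p = 0.00596). Il1a, which encodes the related cytokine IL-1 alpha, lies next to Il1b in the genome. It read -5.36, -4.82 and -5.17 on the adult arrays and -4.76, -4.53 and -4.44 on the P10 arrays. All adult values lay below the P10 values, but the change of -0.64 (SE 0.20) did not pass (adjusted p = 0.0601). It passed without adult array 2 (-0.72, adjusted p = 0.0264) and without P10 array 1 (-0.69, adjusted p = 0.0433), and was -0.45 without adult array 1. After quantile normalization it was -0.13 (adjusted p = 0.566) and after median scaling -0.34 (adjusted p = 0.177).

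Il18 encodes IL-18, a cytokine that, like IL-1 beta, is cleaved by caspase 1 before release. It read 0.17, -0.24 and -0.24 on the adult arrays, against -2.16, -2.13 and -2.02 on the P10 arrays, 4.13-fold higher in adults (log2 change 2.04, SE 0.20, adjusted p = 0.0041). Il36b, one of 3 IL-36 agonists on the array, read -6.02, -5.88 and -5.90 on the adult arrays and -8.04, -7.38 and -7.13 on the P10 arrays. No P10 array was well above background, and by this scaling the signal was at least 2.16-fold higher in adults (adjusted p = 0.0138). The sign turned after normexp correction (-0.36, adjusted p = 0.425). The other agonists Il36a and Il36g did not rise well above background on any array, and Il1f10 (IL-38) was on 1 P10 array only. Of the 8 IL-1 family ligands, 5 were tested, and 4 of these were higher, 0 lower and 1 not called. Among named genes 23.6% were higher and 28.8% lower. Of the 4 higher ligands, Il36b passed the filter through the adult arrays alone.

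The promoter window of Il1b is shown beside that result, with the same marking and a TATA match 60 to 55 bases before the start.
Il1b, chr3:137036582-137036831, minus strand: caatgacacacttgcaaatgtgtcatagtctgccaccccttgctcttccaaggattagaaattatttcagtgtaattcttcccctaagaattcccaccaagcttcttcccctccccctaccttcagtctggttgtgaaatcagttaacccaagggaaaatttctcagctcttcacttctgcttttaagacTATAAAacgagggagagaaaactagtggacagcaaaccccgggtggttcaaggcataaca

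**Figure D2:**
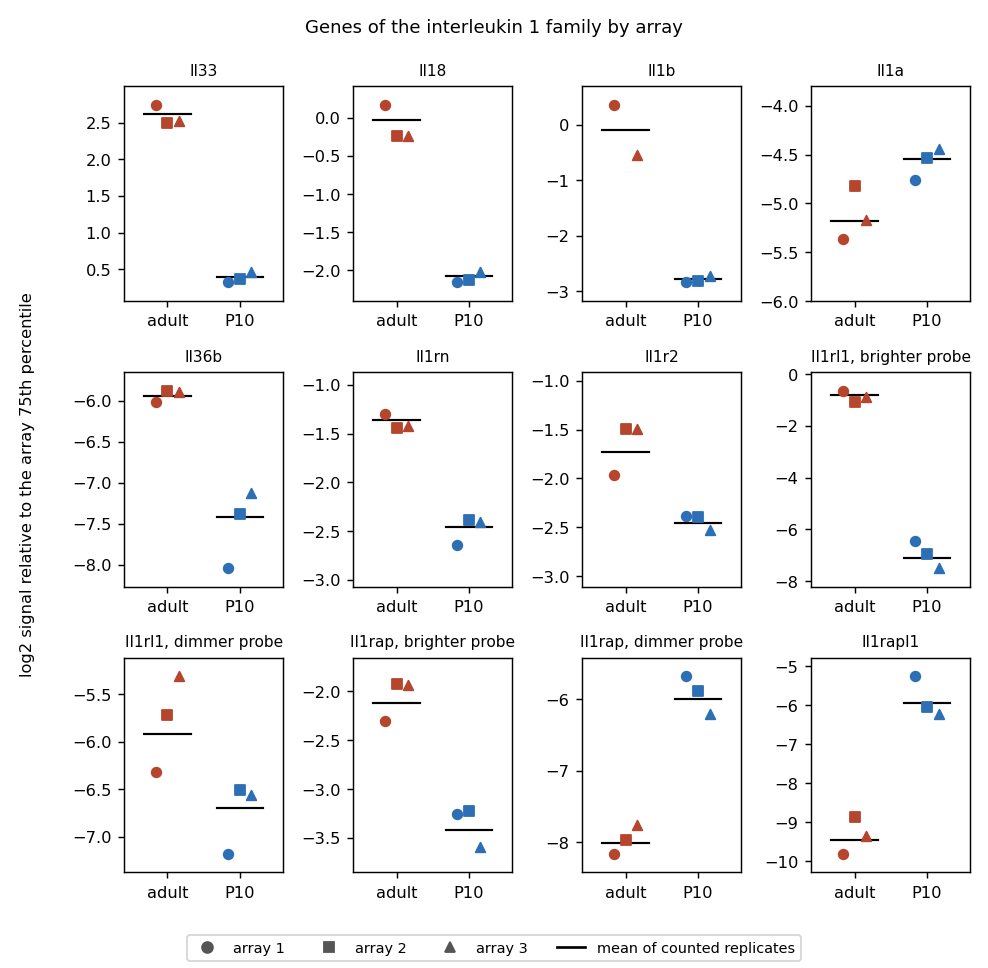
Log2 signal less the 75th percentile of its array (vertical axis, a separate scale per panel) for genes of the interleukin 1 family on the 3 adult arrays and the 3 P10 arrays, with bars for the mean of the counted replicates. The stages do not overlap in any of these 12 panels, but the tested family genes whose stages overlap (Il18bp, Il36rn and Il1rl2) are not shown. The 2 probes of Il1rap lie in opposite orders, the brighter one higher and the dimmer one lower on the adult arrays.

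The 6 inhibitors and decoys were well above background on all 6 arrays, and 3 of them were higher in adults, 0 lower and 3 not called. The shares among named genes were 23.6% higher and 28.8% lower. Il22ra2, a soluble receptor that binds and blocks IL-22, read -2.41, -2.23 and -2.26 on the adult arrays, against -5.30, -5.12 and -4.96 on the P10 arrays. The arrays of each stage lay close together, 6.77-fold higher in adults (log2 change 2.76, SE 0.17, adjusted p = 0.00182), with a change of 1.38 after normexp correction (adjusted p = 0.0147). Il13ra2, the decoy receptor of IL-13, read -1.56, -1.57 and -1.50 on the adult arrays and -3.07, -3.12 and -3.26 on the P10 arrays. It was 3.09-fold higher in adults (log2 change 1.63, SE 0.14, adjusted p = 0.00316). Il1rn, the IL-1 receptor antagonist, read -1.30, -1.44 and -1.42 on the adult arrays and -2.64, -2.39 and -2.41 on the P10 arrays, 2.14-fold higher in adults (log2 change 1.1, SE 0.14, adjusted p = 0.00734). Without P10 array 3 its change was 1.15 and did not pass (adjusted p = 0.092).

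The other inhibitors of the IL-1 family did not pass. Il1r2, the IL-1 decoy receptor, read -1.97, -1.49 and -1.49 on the adult arrays and -2.39, -2.40 and -2.53 on the P10 arrays. All adult arrays lay above, but the change of 0.74 (SE 0.22) missed the threshold (adjusted p = 0.0544). It passed after quantile normalization (0.84, adjusted p = 0.0161) and after median scaling (1.04, adjusted p = 0.00807). The change was 0.97 without adult array 1 and 0.47 on slide 1 alone. Il18bp, the soluble protein that binds IL-18, read -1.44, -0.22 and 0.20 on the adult arrays and -1.08, -1.15 and -1.35 on the P10 arrays. Adult array 1 lay below all P10 arrays and the other adult arrays above them, so the change was 0.51 (SE 0.53, adjusted p = 0.457), 1.23 without adult array 1 and -0.24 on slide 1 alone. Il36rn, the IL-36 receptor antagonist, split in the same way. It read -1.37, 0.08 and -0.01 on the adult arrays and -1.03, -0.30 and -0.64 on the P10 arrays, a change of -0.02 (SE 0.52, adjusted p = 0.983), and 0.69 without adult array 1.

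Il10 encodes IL-10, a cytokine that restrains macrophages and other immune cells. It read -3.71, -3.15 and -3.16 on the adult arrays, against -5.48, -5.61 and -6.11 on the P10 arrays. The signal was 5.26-fold higher in adults (log2 change 2.39, SE 0.31, adjusted p = 0.00754), and after normexp correction the change was 0.70 and did not pass (adjusted p = 0.164). Il24 encodes a cytokine of the IL-10 family that acts on epithelial cells. It read -5.59, -5.23 and -5.19 on the adult arrays and -6.76, -7.00 and -6.67 on the P10 arrays, where it was not well above background, and was at least 2.59-fold higher in adults (adjusted p = 0.00957). Without P10 array 3 its change was 1.48 and did not pass (adjusted p = 0.0575), and after normexp correction the sign turned (-0.19, adjusted p = 0.676). Il20, its neighbour in the genome and a close relative, overlapped between stages and changed by -0.58 (SE 0.32, adjusted p = 0.202).

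Of the 3 receptor chains of the IL-10 family, 2 were tested, and 0 of these were higher and 1 lower, beside 23.6% and 28.8% of named genes. Il10ra, the chain that binds IL-10, read -7.02, -6.98 and -7.32 on the adult arrays, against -5.70, -5.93 and -6.38 on the P10 arrays. It was lower in adults by this scaling (log2 change -0.99, SE 0.24, adjusted p = 0.0344), but the change was 0.00 after quantile normalization (adjusted p = 0.993), and without P10 array 3 it did not pass (-1.27, adjusted p = 0.0729). Il10rb, the chain shared by the receptors of IL-10 and IL-22, read 0.91, 0.88 and 0.96 on the adult arrays and 0.73, 0.70 and 0.64 on the P10 arrays, a change of 0.24 (SE 0.13, adjusted p = 0.195). Il20ra, a receptor chain for IL-20 and IL-24, had no usable spot on adult array 1. It read 0.21 and 0.12 on the other adult arrays and -0.29, -0.32 and -0.30 on the P10 arrays, and with outlier spots kept its change of 0.34 did not pass (adjusted p = 0.129).

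Il6, which encodes the inflammatory cytokine IL-6, read -4.81, -5.46 and -5.59 on the adult arrays, against -8.62, -6.02 and -8.92 on the P10 arrays. P10 array 2 lay far above the other P10 arrays and was the 1 P10 array on which the probe was well above background. The change was 2.95 (SE 0.64, adjusted p = 0.0255). It did not pass on slide 1 alone (3.04, adjusted p = 0.107), without P10 array 1 (2.30, adjusted p = 0.149) or after normexp correction (0.09, adjusted p = 0.738). Leaving out P10 array 2 gave 3.60 (adjusted p = 0.00302) and leaving out P10 array 3 gave 2.15. Il6r, the IL-6 receptor, was not tested because spots on adult arrays 1 and 2 were marked as outliers. It read 0.79 on adult array 3, against -1.25, -1.34 and -1.30 on the P10 arrays, and with outlier spots kept it was higher in adults (log2 change 2.31, SE 0.13, adjusted p = 0.00162). Il6st, which encodes the shared signal chain gp130, was not well above background on any array.

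Il11 and its receptor chain Il11ra1, which also signal through gp130, were both lower in adults. Il11ra1 read -0.40, 0.02 and -0.04 on the adult arrays, against 0.67, 0.58 and 0.49 on the P10 arrays (log2 change -0.76, SE 0.19, adjusted p = 0.0379). Il11 read -6.58, -6.17 and -6.71 on the adult arrays and -5.41, -5.82 and -5.95 on the P10 arrays (log2 change -0.73, SE 0.18, adjusted p = 0.0359), and its change after quantile normalization was 0.14 (adjusted p = 0.579). Il11 did not pass without adult array 3 (-0.59, adjusted p = 0.101), without P10 array 2 (-0.83, adjusted p = 0.0505) or without P10 array 3 (-0.90, adjusted p = 0.158), nor did Il11ra1 without P10 array 3 (-0.83, adjusted p = 0.202). Il12a, a subunit of IL-12 and IL-35, read -5.75, -5.19 and -5.22 on the adult arrays and -6.06, -6.80 and -6.29 on the P10 arrays (log2 change 0.88, SE 0.24, adjusted p = 0.0428). It did not pass on slide 1 alone (0.64, adjusted p = 0.144), without P10 array 2 (0.70, adjusted p = 0.0818) or without P10 array 3 (0.95, adjusted p = 0.174), and its sign turned after normexp correction (-0.29, adjusted p = 0.518). Il23a, the IL-23 subunit, changed by 0.23 (SE 0.13, adjusted p = 0.216), and Il12b, which IL-12 and IL-23 share, was too dim to test.

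**Figure D3:**
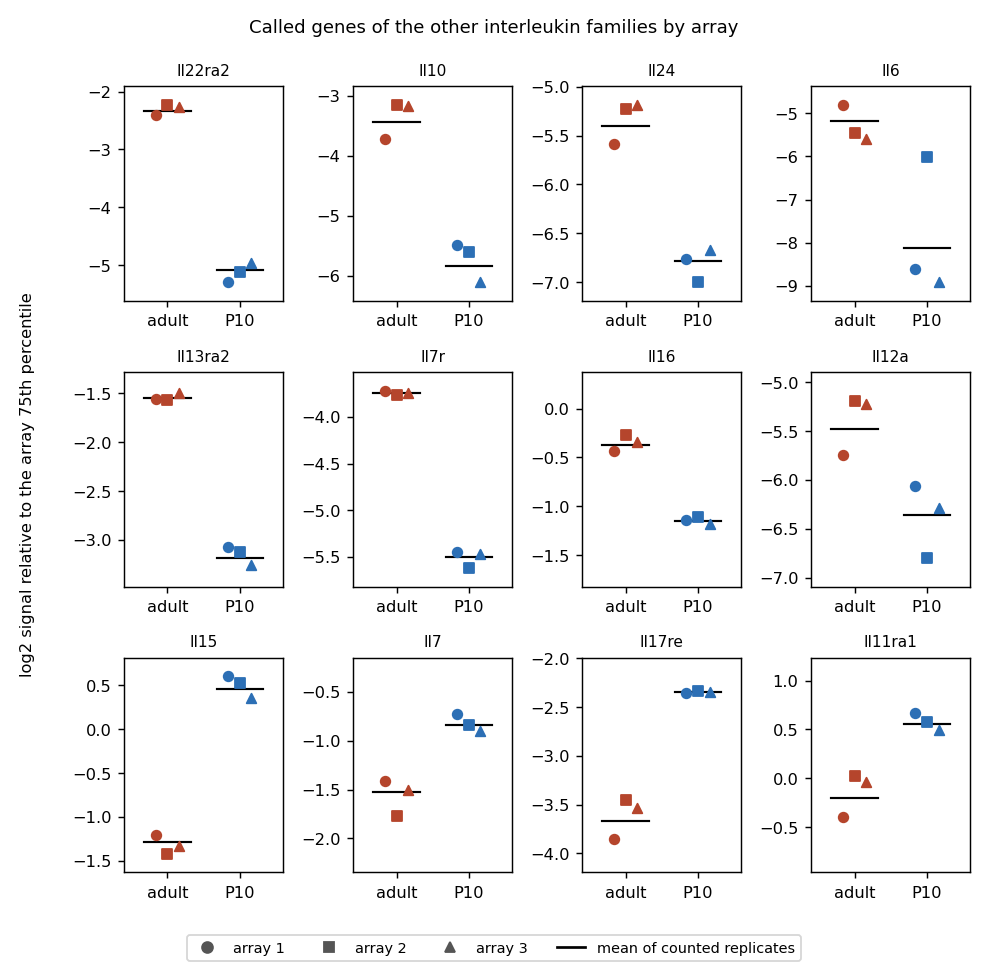
Log2 signal less the 75th percentile of its array (vertical axis, a separate scale per panel) for 12 called interleukin genes outside the interleukin 1 family on the 3 adult arrays and the 3 P10 arrays, with bars for the mean of the counted replicates. The adult points lie above the P10 points in the first 8 panels and below them in the last 4, and the P10 array 2 point of Il6 lies far above the other P10 points.

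Il15 and Il7 encode cytokines that maintain lymphocytes, and both were lower in adults. Il15 read -1.21, -1.42 and -1.33 on the adult arrays, against 0.60, 0.53 and 0.35 on the P10 arrays. The stages lay well apart, and the signal was 3.36-fold lower in adults (log2 change -1.75, SE 0.16, adjusted p = 0.00354). Il7 read -1.41, -1.77 and -1.51 on the adult arrays and -0.73, -0.84 and -0.90 on the P10 arrays, 1.61-fold lower in adults (log2 change -0.69, SE 0.16, adjusted p = 0.0288). Without P10 array 3 the change of Il7 was -0.75 and did not pass (adjusted p = 0.227). Its receptor chain went the other way. Il7r, found mainly on lymphocytes, read -3.72, -3.77 and -3.75 on the adult arrays, against -5.45, -5.62 and -5.47 on the P10 arrays. It was 3.4-fold higher in adults (log2 change 1.76, SE 0.13, adjusted p = 0.00244), and 0.49 after normexp correction, where it did not pass (adjusted p = 0.122).

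The window before the start of Il15 is shown as that of the clearest fall, with an AP-1 match 176 to 170 bases before the start. TGANTCA was found in the first window of 6.36% of all genes and of 5 of the 46 interleukin genes.
Il15, chr19:42544456-42544705, plus strand: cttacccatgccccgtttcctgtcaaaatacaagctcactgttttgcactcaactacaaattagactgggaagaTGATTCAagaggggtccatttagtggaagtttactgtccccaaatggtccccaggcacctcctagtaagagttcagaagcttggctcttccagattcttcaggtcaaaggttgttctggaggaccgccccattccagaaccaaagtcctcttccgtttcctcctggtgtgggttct

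The receptor chains of the common gamma chain group were all measured on every array. Of the 7, 1 (Il7r) was higher, 0 lower and 6 not called, beside 23.6% higher and 28.8% lower among named genes. Il2rg, the common gamma chain itself, read 4.11, 4.36 and 4.11 on the adult arrays and 4.39, 4.26 and 4.38 on the P10 arrays, overlapping between stages (log2 change -0.18, SE 0.14, adjusted p = 0.319). Il13ra1, a chain that binds IL-13 and pairs with Il4r, likewise overlapped (log2 change 0.05, SE 0.20, adjusted p = 0.852). Il4r, the IL-4 receptor, read 0.10, 0.26 and 0.24 on the adult arrays and 0.58, 0.65 and 0.60 on the P10 arrays. All adult values lay below, and the change of -0.43 (SE 0.14) missed the threshold (adjusted p = 0.0657). It passed after quantile normalization (-0.44, adjusted p = 0.0465), and was -0.35 without adult array 1 and -0.13 after median scaling (adjusted p = 0.519). Il2ra, the high-affinity IL-2 chain found on activated and regulatory T cells, read -5.38, -4.03 and -4.20 on the adult arrays and -3.44, -3.61 and -3.58 on the P10 arrays. Adult array 1 lay lowest, and the change was -1.20 (SE 0.47, adjusted p = 0.103), -0.56 without adult array 1 and -1.84 on slide 1 alone. Il21r and Il9r did not pass, and neither did the ligand Il4. Il9r changed by 0.15 (adjusted p = 0.653), passed after quantile normalization (0.56, adjusted p = 0.0358), and was 0.48 without adult array 1. The ligands Il2, Il9, Il13 and Il21 were too dim to test.

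Il1rapl1, a relative of the IL-1 receptors known from synapses, fell most of the 41 genes. It read -9.81, -8.86 and -9.36 on the adult arrays, where it was not well above background, against -5.26, -6.04 and -6.23 on the P10 arrays. The signal was at least 4.32-fold lower in adults (log2 change -3.52, SE 0.35, adjusted p = 0.00416), and -1.14 after normexp correction, where it did not pass (adjusted p = 0.127). Il17re, the receptor chain for the epithelial cytokine IL-17C, read -3.85, -3.45 and -3.53 on the adult arrays, against -2.36, -2.34 and -2.35 on the P10 arrays. It was 2.49-fold lower in adults (log2 change -1.32, SE 0.18, adjusted p = 0.00835), with the same change without P10 array 3 but no call (adjusted p = 0.0743). Il3, a growth factor of blood cells, read -8.18, -6.75 and -7.30 on the adult arrays and -6.10, -5.74 and -5.54 on the P10 arrays (log2 change -1.87, SE 0.45, adjusted p = 0.0337). It was well above background on 1 adult array and did not pass after quantile normalization (-0.87, adjusted p = 0.0586), without adult array 3 (-1.73, adjusted p = 0.0677) or without P10 array 3 (-1.68, adjusted p = 0.095).

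Il17ra, the chain shared by the IL-17 receptors, had an outlier spot on adult array 1. It read 1.93 and 1.94 on the other adult arrays, against 0.88, 0.65 and 1.07 on the P10 arrays, and with outlier spots kept it was higher in adults (log2 change 1.06, SE 0.17, adjusted p = 0.0127). Il17rb, the IL-25 receptor, changed by -0.85 (SE 0.27, adjusted p = 0.0618), and by -1.12 without adult array 1. It passed without P10 array 2 (-0.93, adjusted p = 0.0411), but was -0.14 after quantile normalization (adjusted p = 0.783). Il16, a chemoattractant of CD4+ cells, read -0.43, -0.27 and -0.34 on the adult arrays and -1.14, -1.11 and -1.18 on the P10 arrays. It was 1.72-fold higher in adults (log2 change 0.78, SE 0.14, adjusted p = 0.0144), and did not pass without P10 array 3 (0.76, adjusted p = 0.214). Il34, a ligand of the macrophage growth factor receptor, overlapped between stages with a change of -0.02 (SE 0.27, adjusted p = 0.946). Il3ra changed by 0.16 (SE 0.19, adjusted p = 0.516), and by 0.35 without adult array 1.

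The 18 genes that were not tested complete the set. For 15 of them too few arrays were well above background, and 6 of these (Il1f10, Il18r1, Il1rapl2, Il2, Il12b and Il17a) were well above background on at least 1 array. The other 9 (Il5, Il5ra, Il6st, Il9, Il13, Il17f, Il21, Il36a and Il36g) were so on none. The last 3 (Il6r, Il17ra and Il20ra) were bright but had no usable spot on adult array 1. By role, 9 of the 18 tested ligands were higher and 4 lower, 3 of the 17 tested receptors were higher and 4 lower, and 3 of the 6 inhibitors were higher and 0 lower, beside 23.6% higher and 28.8% lower among named genes. The filter favours some of these directions. The higher ligands Il36b, Il24, Il6 and Il12a and the higher receptor Il1rl1 passed it through the adult arrays alone. The lower ligand Il3 and the lower receptors Il1rapl1 and Il10ra passed it through the P10 arrays alone.

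Markers of immune cells, which make or answer many interleukins, were mostly higher in adult islets, and their part in the interleukin results was not tested. Of 50 immune marker genes tested, 33 were higher and 4 lower with a median change of 1.32. Among named genes 23.6% were higher and 28.8% lower. Leaving out P10 array 3 or adult array 1 left 1 sample in a stage, so calls from those fits are not given for this list. Rises included those of the B cell receptor chain Cd79b (at least 13.5-fold), the integrin Itgam (at least 14.2-fold) and the MHC class II genes RT1-Db1 (3.61) and RT1-Bb (3.60). The falls were Areg, a growth factor made by innate lymphoid and epithelial cells (-4.02), Ctla4 (-2.35), the B cell transcription factor Pax5 (-2.02) and the mast cell protease Mcpt1 (-1.28). The changes named in this list and in that of the signalling genes were all called (adjusted p from 0.00131 to 0.0217). All 8 macrophage markers tested were higher, with a mean level of 0.29 to 0.32 on adult arrays, against -0.92 to -0.53 on P10 arrays. Of the T cell markers 4 of 6 were higher and 0 lower, with -2.25 to -1.92 on adult arrays and -3.11 to -2.99 on P10 arrays. B cell genes did not move as one, since Pax5 was lower. Of the 3 genes in the B cell marker list, Cd22 did not pass (-0.32) and 2 were higher and were not well above background on any P10 array, with a mean of -4.59 to -4.24 on adult arrays and -7.58 to -7.29 on P10 arrays. Mast cell markers, whose cells are known to carry ST2, were mixed, with 3 higher, 1 lower and 4 not called of 8, and mean levels of -3.81 to -3.31 on adult arrays and -4.30 to -4.23 on P10 arrays. In whole islets, fewer cells of a type and less RNA per cell cannot be told apart.

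**Figure D4:**
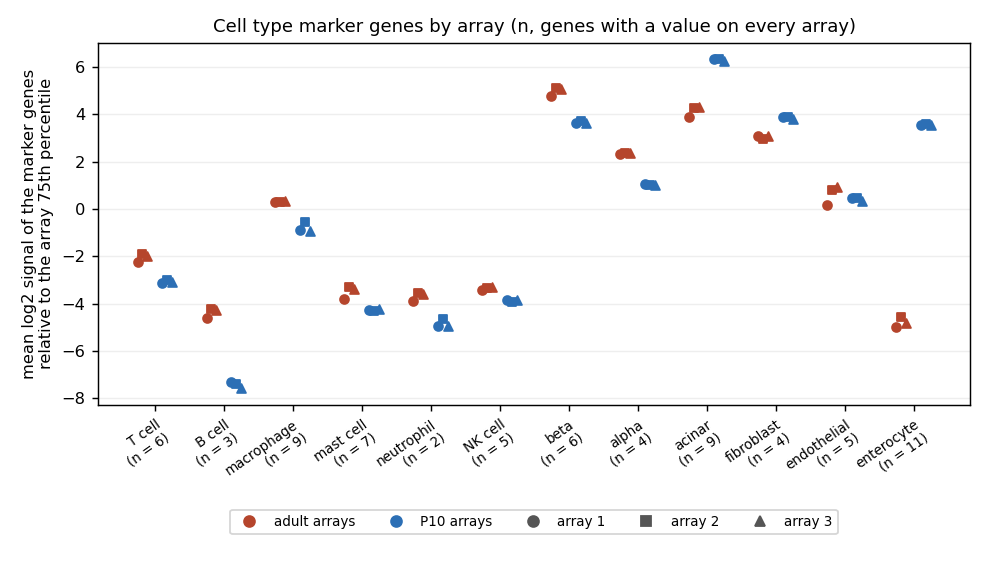
Mean log2 signal less the 75th percentile of its array (vertical axis) of the marker genes of 12 cell types on the 3 adult arrays and the 3 P10 arrays, with the number of genes under each name. The T cell, B cell, macrophage, mast cell, neutrophil, NK cell, beta and alpha markers lie higher on adult arrays. The acinar, fibroblast and enterocyte markers lie higher on P10 arrays, and the endothelial markers overlap. The 3 arrays of a stage lie close together within most lists.

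Of 48 adaptors, kinases, STAT factors and inhibitors tested, 11 were higher, 9 lower and 28 not called, with a median change of -0.05, beside 23.6% higher and 28.8% lower among named genes. As for the immune markers, calls from the fits without P10 array 3 or adult array 1 are not given for this list. Rises included those of the signal inhibitor Socs5 (1.77), the transcription factors Bcl6 (1.38) and Stat4 (1.06), and Ebi3 (1.03), the partner subunit of IL-27 and IL-35. The largest falls were those of the transcription factor Maf (-2.37), Jak3 (-2.17), the kinase that pairs with the common gamma chain, the feedback inhibitor Cish (-1.88), Jak1 (-1.76) and Casp1 (-1.74), the protease that cleaves IL-1 beta and IL-18. Casp1 read 0.18, 0.32 and 0.19 on the adult arrays, against 2.04, 1.93 and 1.93 on the P10 arrays (SE 0.13, adjusted p = 0.00252). It was thus lower in adults while Il1b and Il18 were higher. Jak3 read 0.51, 0.55 and 0.44 on the adult arrays and 2.58, 2.65 and 2.71 on the P10 arrays (SE 0.13, adjusted p = 0.00184), while its partner Il2rg did not pass.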

How the data were processed

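Total RNA of 3 adult and 3 P10 islet samples had been labelled with Cy3. The submitters' processing notes name Agilent Feature Extraction 11.0.1.1 as the scanner software, whose deposited files give an intensity per spot. Background subtraction and detrending had been applied to this intensity, per the file headers, but no scaling between arrays. The authors also deposited normalized log2 values, with no method given in the sources used here, of which 98.77% lay within 0.05 of quantile-normalized processed signals. Outlier spots were left out, log2 signals were scaled to each array's 75th percentile, and adult minus P10 was fitted with limma 3.58.1 in R 4.3.3, tested first on simulated data. All probes passing the filter were fitted and p-values adjusted together (Benjamini-Hochberg, threshold 0.05). RefSeq accessions were looked up in a GRCr8 gene table, which named 14294 probes. Alternatives are listed in the closing section. The files hold no mean signal, so normexp (offset 50) used the median signals.

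The members and lists were chosen with earlier results of these data known. Named in the text are the called genes and a fixed set of ligands and receptors, and of the signalling and immune lists the 5 largest calls in each direction, of which some are not reported here. In probes with 3 spots, adult arrays 2 and 3 differed by a variance 1.18 times that of spot noise, against 18 and 15 for the other adult pairs. P10 arrays 1 and 2 gave 0.767, against 0.959 and 0.907. Every P10 pair thus lay below spot noise, so this measure does not single out a P10 pair, and the P10 n of 2 is a choice. The replicate numbers do not pair adults with pools, since deviations of same-numbered arrays correlated with r of -0.21, 0.08 and -0.24.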

Additional observations from a re-analysis of the deposited data

How the results depend on the processing

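Il18, Il1b, Il33, Il1rl1, Il22ra2, Il13ra2 and Il15 kept direction under every alternative in which they were tested. They kept the call wherever at least 2 samples were left in each stage. Calls from fits of 6 separate arrays, slide as a block included, or with 1 sample in a stage are not counted here. For Il1rl1 this holds for its brighter probe and the mean of its 2 probes, and its dimmer probe did not pass in the main fit. Against 15 higher and 8 lower interleukin genes with a median of 0.15, median scaling gave 4 lower and a median of 0.45. The named genes then had 22.3% lower and a median of 0.175. The authors' normalized values gave 5 of 31 lower, against 2736 of 10153 named genes. No filter on dim probes gave 15 of 56 lower and a median of -0.38, against 4147 of 13710 and -0.319. Requiring signal on all 6 arrays gave 5 of 32 lower, against 28.7% of named genes. Normexp correction gave 7 higher, 2 lower and a median of -0.19, against 13.7%, 15.8% and -0.261. Slide as a block gave 14 of 43 lower and a median of -0.02, against 45.6% of named genes lower and a median of -0.188. That fit, like slide 1 alone, sets adult array 1 against the P10 arrays where adult array 1 has a value. On slide 1 alone the median was -0.19, against -0.191 over named genes. Leaving out 1 array at a time gave 10 to 23 higher, 2 to 12 lower and medians of 0.09 to 0.41. Where that, or slide 1 alone, left 1 sample in a stage, it was taken to vary like the other stage. The replicate numbers are no pairing. With them as a replicate block over 6 separate arrays, 17 were higher and 11 lower, against 20 and 11 with 6 separate arrays and no block. Both fits, like slide as a block, count as separate samples adult arrays that differed by about the noise between spots. Their p-values can therefore be too small. All 15 higher and 8 lower calls held in both fits, but this is no check of those calls. Keeping outlier spots, chosen after seeing the data, gave 17 and 8 of 44, against 2761 and 3389 of 11617 named genes. The causes were not tested.

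For the signalling genes (11 higher, 9 lower), normexp gave 6 higher. Lower counts were 16 with 6 separate arrays, 14 with the replicate block, 19 with slide as a block and 21 on slide 1, and leaving out arrays gave 2 to 18 higher and 6 to 15 lower. For the immune markers (33 higher, 4 lower), slide as a block and slide 1 each gave 8 lower, and leaving out arrays gave 15 to 37 higher and 3 to 5 lower.

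Signs turned for these genes. After normexp these were Il36b (-0.36), Il24 (-0.19), Il12a (-0.29), Il13ra1 (-0.04), Il9r (-0.22) and Il36rn (0.06). After quantile normalization they were Il11 (0.14), Il4 (0.25), Il21r (0.28), Il2rg (0.11), Il34 (0.23) and Il36rn (0.01), and in the authors' values Il11 (0.13), Il4 (0.25), Il21r (0.28), Il2rg (0.11), Il34 (0.23) and Il36rn (0.01). With median scaling they were Il21r (0.20), Il2rg (0.12), Il34 (0.28) and Il36rn (0.29). With slide as a block and on slide 1 they were Il18bp (-0.24), Il3ra (-0.02) and Il9r (-0.19). With 6 arrays, blocked by number or not, they were Il13ra1 (-0.02), Il34 (0.10) and Il36rn (0.22). Over the mean of probes it was Il1rap (-0.36). Leaving out arrays gave ranges of -0.20 to 0.69 for Il36rn, -0.43 to 0.18 for Il4, -0.16 to 0.07 for Il13ra1, -0.22 to 0.17 for Il21r and -0.06 to 0.31 for Il34.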
